A study of Arabidopsis thaliana with 9 samples.

Results

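The 100 probe sets with the steadiest signals were taken from 9 arrays of whole Arabidopsis thaliana plants, as candidate reference genes for this kind of material. They were chosen among the 6511 of 22746 probe sets whose mean signal over the 9 arrays was at least 100, as the 100 with the smallest standard deviation (SD) of log2(signal + 5) over all arrays. The genes LHCB4.1, LHCB4.2 and PSAE-1 and the genes of the plastid and mitochondrial genomes had been set aside, and none of those recognised by name would have entered the 100. Of the 100, 48 matched exactly 1 named gene, 3 matched several genes and 49 had no gene in the table used here, so these could not be checked for an origin in an organelle genome. Because the SD over all 9 arrays chose the members, their small differences between arrays and lines are given as a description and not as a finding.

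Reference genes are transcripts whose level is taken as constant, so that other transcripts can be expressed relative to them in quantitative PCR. In plants this role has long been given to genes of actin, tubulin, ubiquitin and glycolysis, and later to less abundant genes of vesicle traffic, phosphatase signalling and RNA metabolism picked from array collections. A useful reference varies little between samples and has a signal well above background.

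The study hybridised RNA of 3 lines to Affymetrix ATH1 arrays, with 3 arrays per line and 1 sample per array. The titles mark C2S1 as the wild-type control, yet its label for genetic variation gives a knock out mutation. By their labels, plants of lines 348 and 409 carry T-DNA knock outs, and no disrupted gene is named. All plants were whole plants at growth stage 1.04, grown for 17 days at 21 C in a cycle of 16 h light and 8 h dark, with 25 seeds per plate. Nothing in the labels states that replicates were grown separately, so the spread given here may be partly technical, and the number of arrays limits the precision. In whole plants, fewer cells of a type and less RNA per cell cannot be told apart.

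Within a line, the correlation between arrays across 14199 probe sets was 0.963 to 0.985, and these probe sets share each array's labelling and are no replicates. RCA, the leaf activase of Rubisco, had 5061 to 6350 signal units and PYK10, a root beta-glucosidase, had 2340 to 3641, and both were bright on every array. The shoot meristem gene CLV3 was at or near 0, with line means of 0.681 to 1.68. As a measure of RNA integrity, control probe sets for the 3' end were divided by those for the 5' end of the same transcript. In the r2 set of controls the ratios over the 9 arrays were 1.58 to 1.97 for GAPDH, 1.37 to 2.17 for ubiquitin and 6.08 to 11.96 for actin. In the Athal set on the same arrays they were higher, at 2.71 to 5.01, 3.02 to 4.90 and 24.1 to 58.4, and the part of 3' bias in the members' values was not tested.

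The signals of the members hardly moved from array to array. Their SD ran from 0.039 to 0.0728 on the log2 scale with a median of 0.0639, against a median of 0.172 for the other 6411 probe sets. In linear terms, the highest of the 9 signals was 1.09 to 1.19 times the lowest in every member, with a median of 1.15, and the median coefficient of variation was 4.52%. For the other probe sets the median ratio was 1.45 and the median coefficient of variation 12.1%. The limit of the list was not a gap: the members of rank 99 and 100, ATGRIP and 250693_at, had SDs of 0.0726 and 0.0728, and the next probe sets outside, 254709_at and 248473_at, had 0.0728 and 0.0731. The nearest named gene outside was AT2G39170, with an SD of 0.0741.

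**Figure D1:**
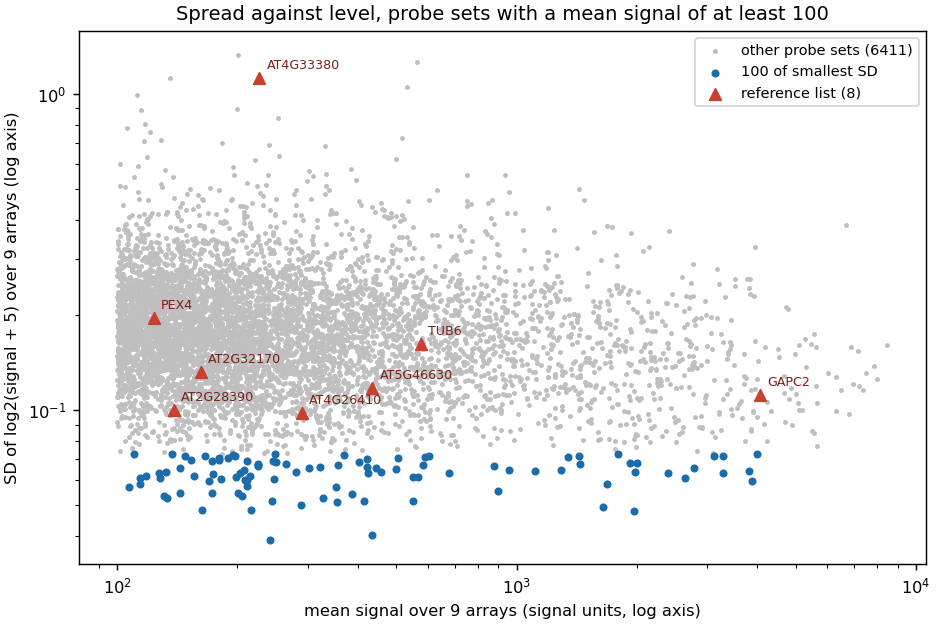
Mean signal over 9 arrays against the SD of log2(signal + 5), both on log axes, for the 6511 probe sets with a mean signal of at least 100. The 100 members (blue) lie along the lower edge at all levels from 107 to 3999, while the 8 reference list genes (red triangles) lie above them and AT4G33380 stands near the top at an SD of 1.13.

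Members were found at every level of signal but were more frequent among bright probe sets. Signals of different probe sets depend on the probes and are no measure of relative transcript abundance. When the 6511 probe sets were split into 10 groups of near equal size by mean signal, the brightest group ran from 911 to 8479 signal units and 22 of its 651 probe sets were members, or 3.38%. In the dimmest group, from 100 to 114, 4 of 652 were members, or 0.614%. The rise between these groups was not even. The share was 0.461% from 114 to 131 units, 2.15% from 211 to 259 and 0.922% from 259 to 339. The median SD of all probe sets was 0.145 in the brightest group and 0.183 in the dimmest. A mean signal of 1000 or more was seen in 21 of the 100 members and in 8.75% of the other probe sets. A mean under 200 was seen in 29 members and in 47.4% of the others.

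The steadiest gene was AT5G40670, which encodes a PQ-loop repeat protein related to the lysosomal cystine carrier of animals. It gave 240, 242 and 245 signal units in the control, 258, 237 and 242 in line 348, and 240, 237 and 236 in line 409, an SD of 0.039. The array of line 348 replicate 1 was the high one, and the other 8 arrays lay between 236 and 245. AT3G56680, a protein with an R3H domain that binds single-stranded nucleic acids, followed with an SD of 0.0404. Its signals were 441, 441 and 431 in the control, 425, 429 and 424 in line 348, and 455, 416 and 444 in line 409. Here line 409 held the highest and the lowest value, and the lines differed by no more than 0.0402 in mean log2.

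AT5G08560, a WD40-repeat protein, gave 224, 221 and 219 in the control, 213, 215 and 214 in line 348, and 199.5, 216 and 222 in line 409. Its SD was 0.0482, with line 409 replicate 1 as the low array, and the 3 values of line 348 all lay below those of the control. Hop1, a co-chaperone that joins Hsp70 to Hsp90, gave 160, 160 and 161 in the control, 169, 156 and 166 in line 348, and 156, 173 and 166 in line 409. Control values of Hop1 were almost equal and lay inside the range of each mutant line. These 4 genes were the only named members that stayed among the 100 whichever of the 9 arrays or 3 lines was left out of the choice.

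**Figure D2:**
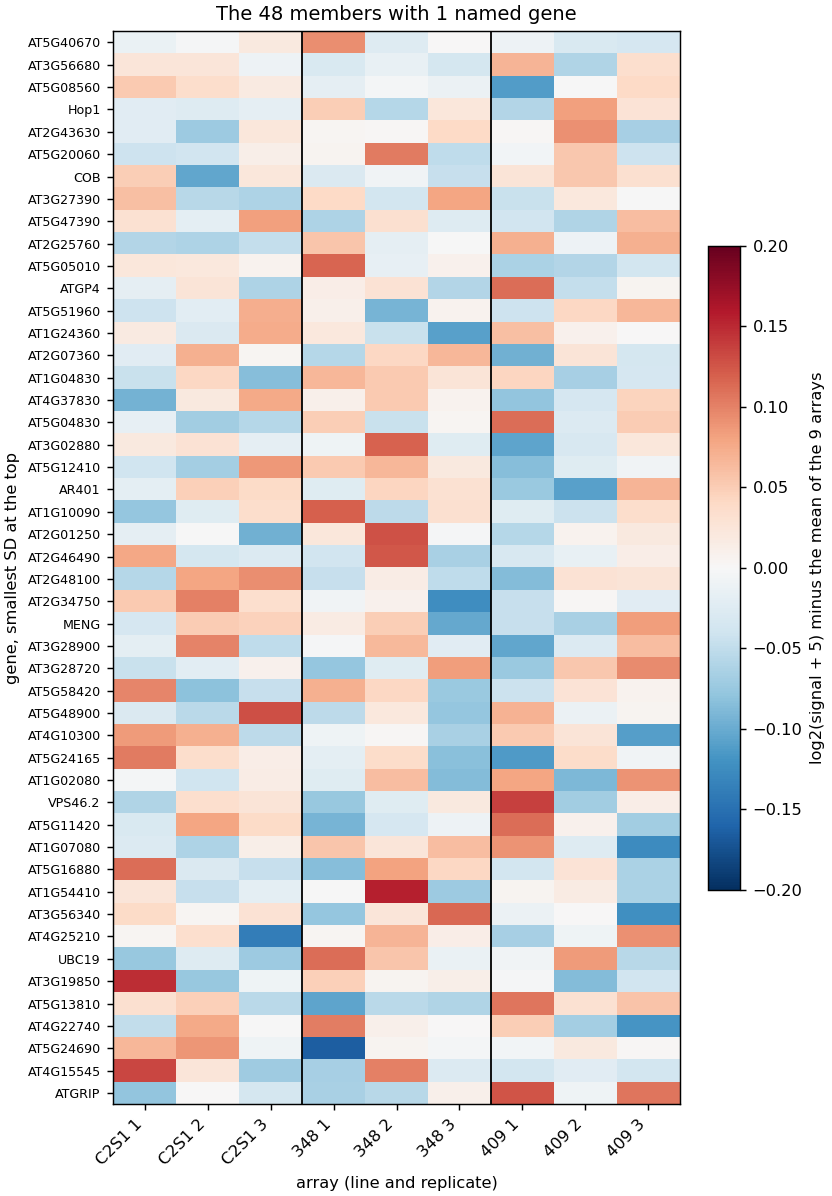
Each row is one of the 48 members with 1 named gene, ordered by SD, and each column an array, with colour giving log2(signal + 5) minus the row's mean over the 9 arrays. Over all 100 members the deviations run from -0.17 to 0.16, and no column is of a single colour.

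Genes of ribosomes and of RNA metabolism made up 11 of the 48 named members. The roles given here come from general knowledge of these loci and were grouped after the names had been seen, so no share was compared with other genes. The 4 ribosomal protein genes had bright probe sets, with mean signals of 1111 to 2637. AT2G01250, of the L7 family of the large subunit, gave 2602, 2634 and 2464 in the control, 2677, 2878 and 2631 in line 348, and 2532, 2648 and 2672 in line 409. Its high array was line 348 replicate 2, and the 3 lines overlapped. AT5G58420 of the S4 family, AT3G28900 of the L34e family and AT3G56340 of the S26e family had SDs of 0.0648, 0.064 and 0.068.

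In RNA metabolism and transcription there were 7 genes, with mean signals of 173 to 434 and SDs from 0.0404 to 0.0687. AT1G02080, the NOT1-type scaffold of the complex that shortens poly(A) tails, had a mean signal of 356 and ranged from 334 to 379. AT2G34750, an RRN3-type factor that starts transcription of ribosomal RNA by RNA polymerase I, gave 440, 455 and 434 in the control, 422, 426 and 389 in line 348, and 410, 425 and 417 in line 409. All 6 mutant values lay below the 3 control values, and the mean log2 differences were -0.10 and -0.08. AT5G47390, a MYB factor of hypocotyl and leaf growth, ranged from 313 to 347. The others were AT3G56680, the THUMP-domain protein AT5G12410, the exonuclease family gene AT2G48100 and the storekeeper-like regulator AT4G25210.

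Membrane traffic was represented by 6 genes that act at different steps. AT5G05010, the delta subunit of the coatomer that coats Golgi vesicles, gave 392, 392 and 388 in the control, 419, 382 and 388 in line 348, and 369, 371 and 376 in line 409. Line 409 was the lowest of the 3 lines, with all 3 values below those of the others, by 0.07 and 0.09 in mean log2. AT2G07360 is a subunit of the TPLATE complex of endocytosis and ranged from 329 to 370 with an SD of 0.0571. AT1G04830, a Rab GTPase-activating protein, had the lowest mean signal of all members at 107, and ranged from 100.2 to 112.

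The endosomal sorting genes were VPS46.2, a CHMP1-type ESCRT-III protein, with 213 to 248, and AT5G16880, a TOM1-like ubiquitin receptor, with 212 to 244. ATGRIP, a golgin of the trans-Golgi, was the least steady of the named members with an SD of 0.0726. Its signals were 103.8, 109.98 and 107 in the control, 104.8, 105.6 and 111 in line 348, and 120.3, 109 and 119 in line 409, where 2 of 3 arrays exceeded all others.

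Signalling, ubiquitin and chaperone genes also numbered 6, all with mean signals between 131 and 216. AT2G25760, a protein kinase, gave 125, 125 and 127 in the control, 136, 129 and 131 in line 348, and 138, 129.97 and 138 in line 409. Every mutant array was above every control array, although the mean differences were 0.07 and 0.10 on the log2 scale. UBC19, a ubiquitin-conjugating enzyme, had a mean log2 difference of 0.11 in line 348, the largest of this group, with 228, 219 and 209 against 199.7, 207 and 200.03 in the control. ATGP4, a membrane-anchored ubiquitin-fold protein, and AT3G02880, a leucine-rich repeat receptor kinase, had SDs of 0.0548 and 0.0601.

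Cell wall genes were COB, AT5G48900 and AT5G11420. COB encodes COBRA, a GPI-anchored protein needed for oriented cellulose deposition, and gave 569, 511 and 559 in the control, 539, 547 and 533 in line 348, and 560, 571 and 562 in line 409. Its control values spanned almost the full range of the 9 arrays. AT5G48900, of the pectate lyase family, and AT5G11420, a DUF642 protein, had SDs of 0.0655 and 0.0672.

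Nuclear genes for organelle proteins and metabolism gave 8 members, with mean signals from 132 to 1689. AT4G37830, a subunit of mitochondrial cytochrome c oxidase, gave 1580, 1711 and 1779 in the control, 1700, 1751 and 1696 in line 348, and 1597, 1648 and 1741 in line 409. Its control arrays held both the lowest and the highest value. AT1G24360, the plastid 3-oxoacyl-ACP reductase of fatty acid synthesis, ranged from 830 to 943, the alpha/beta hydrolase AT5G20060 from 401 to 447, and MENG, a methyltransferase of phylloquinone synthesis, from 123 to 141. AT5G13810, a glutaredoxin family gene, had the largest difference between lines of any member, 0.14 in mean log2 between line 409, at 204, 193 and 197, and line 348, at 176, 182 and 181.

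With AT5G40670, 6 named members were put in a loose group of membrane, stress and other proteins. AT1G54410, a dehydrin, was bright at a mean of 2003, with line 348 replicate 2 as the high array at 2229. AT5G24690, a RETICULATA-related protein, had the largest ratio of highest to lowest signal of all members, from 449 to 536, with line 348 replicate 1 as the low array. AT1G10090 of the ERD4 family, AT3G19850 of the NPH3 family and the glycine-rich protein AT4G22740 had SDs of 0.0609, 0.0696 and 0.0706. No role is given for the remaining 8 named members, among them AT2G43630, AT3G27390 and AT5G51960, whose SDs were 0.0512, 0.0527 and 0.0549, and AT4G15545, with a mean signal of 1798.

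The members without a named gene included the brightest probe sets of the list. The median mean signal of these 49 was 369, against 246 for the 48 named members, and 13 of them exceeded 1000. Probe set 262985_s_at was the brightest member at 3999, and 257054_at had 3882 with an SD of 0.0597. Probe sets 255789_at and 245351_at, with SDs of 0.048 and 0.0503, were the only unnamed members that stayed in the list under every omission of an array or a line. The suffix _s_at, which marks probes shared by several transcripts, was carried by 5 members, or 5%, and by 4.2% of the other probe sets.

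By the chromosome in their RefSeq record, 17 of the 48 named members lay on chromosome 5, or 35.4%. This compares with 23.6% of the other 3046 probe sets with 1 nuclear gene and a mean signal of at least 100. Chromosomes 1, 2, 3 and 4 held 10, 7, 8 and 6 members, or 20.8%, 14.6%, 16.7% and 12.5%. The shares of the other probe sets there were 25.1%, 15.6%, 21.0% and 14.6%. These differences were not tested. The 48 members were 48 different genes, so no gene was counted by more than 1 probe set.

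As a group, the members had nearly the same level on each array. The deposited signals were already on a common scale, so this level is relative to each array's other signals. The geometric mean of the 100 members on an array, relative to the average array, ran only from 0.995 on control replicate 3 to 1.01 on line 348 replicate 2. Line 409 replicate 1 was the highest array for 17 members and the lowest for 17, so it was at an extreme in 34% of members, and in 30.5% of the other probe sets. Line 348 replicate 2 was at an extreme in 11% of members and 15.2% of the others.

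The 3 lines were compared with limma in 1 model of the 9 arrays, with Benjamini-Hochberg adjustment over the 14199 probe sets tested and a call at an adjusted p under 0.05. The model called 0 of the 100 members in line 348 against the control, where the background was 0.0211% of probe sets, and 0 in line 409 against the control, where it was 0.0423%. Between lines 409 and 348 it called 0 members against a background of 0.0141%. In each of these comparisons 0 members had an unadjusted limma p under 0.05, where the background was 5.64%, 12.2% and 7.48% of probe sets, and the choice of members fixes this count. Median log2 changes of the members were 0.0034 in line 348 and 0.0057 in line 409, next to -0.0094 and -0.0116 over all probe sets tested, and the 2 comparisons share their control arrays. The largest absolute change of a member was 0.13 in line 348 and 0.14 in line 409.

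Rank order within these narrow ranges still separated lines in some members. The 3 arrays of line 348 did not overlap the control in 20 of 100 members, 13 higher and 7 lower, where the background was 14.7% of the 6511 probe sets. For line 409 it was 15 members, with a background of 20.1%, and between the mutant lines 12 members, with a background of 11.2%. Differences between lines made up a median of 21.8% of a member's sum of squares, and 27.8% for the other probe sets. Nothing is read from these counts, since the same arrays chose the members.

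An array that took no part in the choice gives a view of steadiness that the choice did not fix. It still shared its line with arrays that were used, so it is not shown to be an independent sample. When the 100 were chosen on 8 arrays, their median absolute log2 difference on the array left out, from the mean of the other 8, was 0.0653 to 0.147, with a median of 0.0812 over the 9 omissions. The same measure for the 100 members on arrays that had chosen them was 0.0446, and for all other probe sets of at least 100 signal units it was 0.127. The probe sets chosen were closer than the others on all 9 arrays left out, by a median ratio of 0.69. They were not matched to the others for signal level, and the part of level in this was not tested. On line 409 replicate 1, however, the values were 0.147 for the probe sets chosen and 0.153 for the others, and 31% and 33.7% lay within 0.1 log2 units. No test was run on these medians, as probe sets share their arrays.

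**Figure D3:**
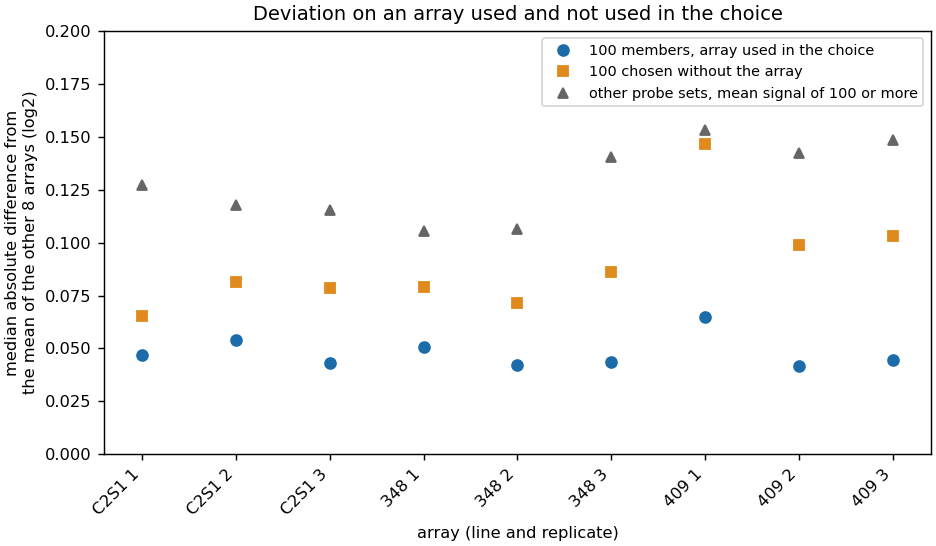
Median absolute log2 difference of each array from the mean of the other 8, for the 100 members on an array used in the choice (circles), for 100 probe sets chosen without that array (squares) and for the other probe sets (triangles). Squares lie above the circles on every array, and on line 409 replicate 1 they come close to the triangles.

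Leaving out a whole line tested the choice on a line that had not been used. Here the mean of the 3 arrays left out was compared with the mean of the 6 arrays used. Averaging arrays narrows such differences, so these values cannot be set beside those of single arrays above. Chosen on the control and line 348, the 100 probe sets differed in line 409 by a median of 0.0978, against 0.1125 for the others. Chosen without line 348 they differed there by 0.0675, against 0.0827, and chosen without the control by 0.0723, against 0.105. Their median SD on the 6 arrays that chose them, which is a spread of single arrays, was 0.0431 to 0.0518.

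The list itself changed with the arrays. With 1 array left out, 54 to 77 of the 100 members were kept, and the 3 lowest counts were 54, 61 and 65, when line 409 lost replicate 1, 2 or 3. With a line left out, 47 were kept without the control, 36 without line 348 and 28 without line 409. A core of 38 members, 24 of them named, was kept in each of the 9 omissions of an array. The 6 members kept in all 12 omissions were AT5G40670, AT3G56680, AT5G08560, Hop1, 255789_at and 245351_at, while 22 members were kept in no omission of a line.

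**Figure D4:**
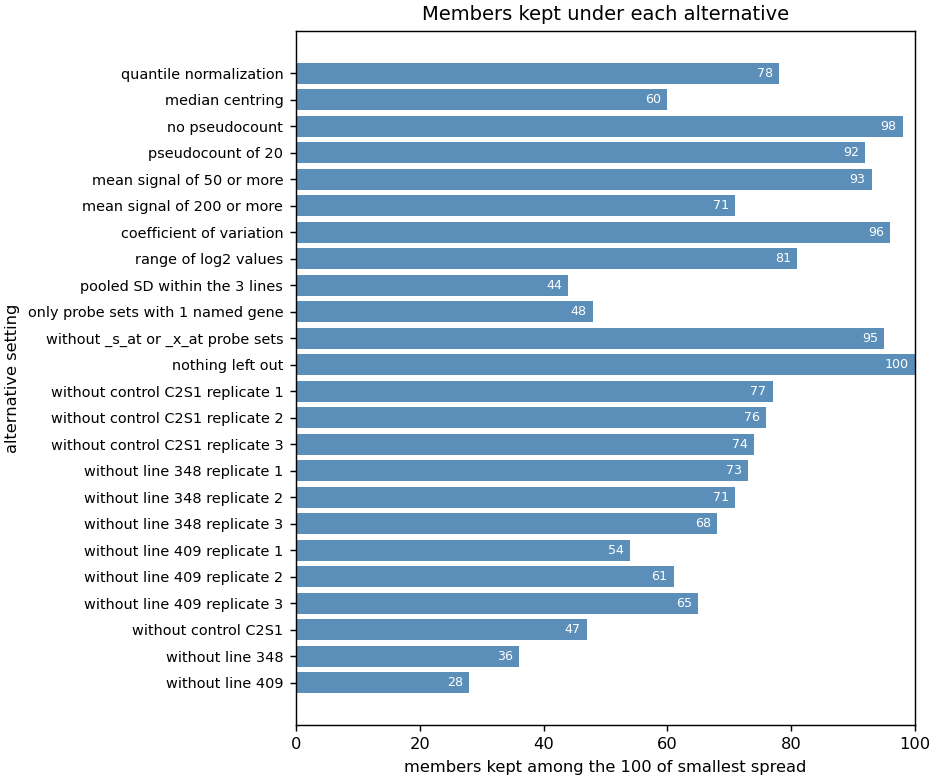
Number of the 100 members that remain among the 100 of smallest spread under each alternative, from 28 without line 409 to 100 with no gene set aside. Bars start at 0, and settings of the pseudocount keep 92 or more.

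Genes long used or proposed as references were then set beside the members. Of 35 such genes, 12 had a probe set matched to them alone here, and 8 of these probe sets had a mean signal of at least 100. Of these 8, 0 were among the 100 members, which made up 1.54% of the 6511 probe sets, so nothing is read from this count. The members were also chosen on these arrays and the reference genes were not, so their SDs are no even comparison. The other 23 of the 35 genes had no such probe set. Whether any of them is among the 49 members without a named gene is not known here. The median SD of the 8 reference probe sets was 0.125, below the median of 0.171 for all 6511 probe sets. Of the 8, 6 were below that median. AT4G26410, proposed as a reference from array surveys, had the smallest SD of the 8 at 0.0978. It gave 262, 269 and 270 in the control, 289, 315 and 319 in line 348, and 294, 300 and 286 in line 409. Every mutant array lay above every control array, with mean log2 differences of 0.20 in line 348 and 0.13 in line 409. The limma adjusted p-values were 0.884 and 0.63. AT2G28390, the SAND family gene, had an SD of 0.1, AT5G46630, a medium subunit of the clathrin adaptor, 0.117, and GAPC2, a glycolytic dehydrogenase, 0.112. AT2G32170 had 0.132, with signals of 133 to 183. TUB6, a beta-tubulin, had 0.162, and PEX4, the ubiquitin-conjugating enzyme also called UBC21, had 0.196, with signals of 106.1 to 163.

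The 4 reference list probe sets with a mean signal under 100 were not ranked. Among the 8 that were, AT4G33380 was the exception, at rank 6509 of 6511 in steadiness. It gave 293, 507 and 527 in the control, 113, 207 and 68.2 in line 348, and 171, 93.1 and 62.2 in line 409, so that each of the 6 mutant arrays lay below the 3 control arrays. The log2 changes were -1.82 in line 348 and -2.04 in line 409, with SE 0.358 and limma adjusted p = 0.226 and 0.0603, so neither passed the threshold. Its highest signal was 8.47 times its lowest, against a highest ratio of 1.19 for any member. The remaining 7 of these genes had limma adjusted p-values of 0.552 or more in all 3 comparisons.

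**Figure D5:**
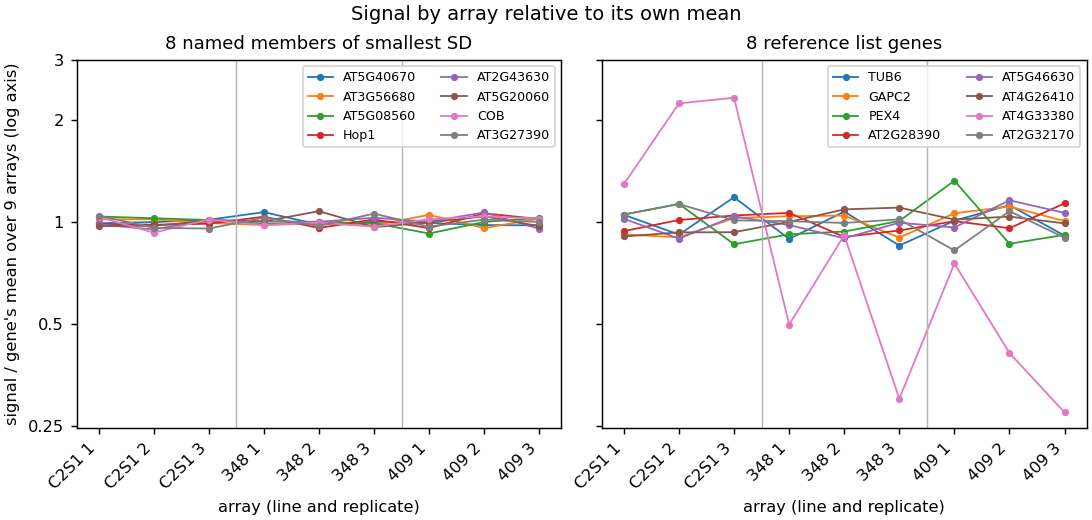
Signal on each array divided by the gene's own mean over 9 arrays, on a log axis, for the 8 named members of smallest SD (left) and the 8 reference list genes (right), where lines only join the points of a gene. The members, chosen on these arrays, stay near 1 on every array. AT4G33380 runs from 527 signal units in the control down to 62.2 in line 409.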

How the data were processed

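The deposited values are signals, an intensity on a linear scale, which the authors made with MAS5 and GCOS, per the submitters' processing notes. The sources used here do not give their versions. All signals were analysed as deposited, without detection calls. Their mean, trimmed by 2% at each end, was 100.01 on every array. Steadiness here is therefore relative to that common scale and is not constancy of absolute transcript amounts. The 64 Affymetrix control probe sets were left out. Genes were named from the platform's table, matched to the RefSeq table of TAIR10.1, in which all 48 singly named members matched.

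SDs were computed in Python 3.11.15 on log2(signal + 5). Lines were compared in R 4.3.3 with limma 3.58.1, in 1 fit of 9 arrays with an intensity trend and 6 residual degrees of freedom, for probe sets above the 40th percentile of an array on at least 3 arrays. No array was dropped or imputed. The code was tested on simulated data.

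The members and gene lists were chosen with earlier results of these data known. Genes were named as the 15 steadiest, the 5 brightest and 5 dimmest named members, those at the limit of the list and the reference list genes of at least 100 signal units. Further members were named after their values were seen, to describe each role. Planned counts of functional keywords were made but are void, since only 4 of the 48 named members had a descriptive name in the tables used here, and promoter motifs and protein lengths were not analysed here. Alternatives covered normalization, pseudocount, the signal floor, the measure of spread, the filter, the variance model, omitted arrays and lines, and the replicate number as a block.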

Additional observations from a re-analysis of the deposited data

How the results depend on the processing

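Of the 100 members, 54 to 77 were kept with 1 array left out, 60 with median centring, 44 with the pooled SD within the 3 lines and 48 when probe sets were limited to those with 1 named gene, which removes the rest by construction. Without the control 47 were kept, without line 348 36 and without line 409 28. The remaining settings kept 71 or more, and setting no gene aside, an alternative chosen after seeing the data, kept 100, and the causes of these shifts were not tested. The median SD of the 100 was 0.0749 with 1 named gene required, 0.0518 without the control, 0.051 without line 348 and 0.0431 without line 409, each of the latter on fewer arrays, and 0.0547 to 0.0634 with 1 array left out. The SD of the member of rank 100 was 0.0843, 0.0601, 0.0607 and 0.0503 under the same settings, and 0.0637 to 0.0707 with 1 array left out, against 0.0728. With the pooled SD within lines, 1 reference list gene, AT4G26410, entered the 100, at a within-line SD of 0.0491. The median held-out deviation was 0.0792 to 0.0834 under other normalizations and pseudocounts, against 0.0812. The median SD of the reference list was 0.1158 to 0.1334 under these settings and with 1 array left out, against 0.125.

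In limma, 0 members were called under any alternative, beside a background of 0.0141% to 0.0423% of probe sets in the main fit. The choice of members for a small SD over these arrays fixes this count, so nothing is read from it. The number of probe sets called in line 348 was 3, and 1 to 24 with 1 array left out, 1 without the intensity trend, 10 with array weights and 6 with only the 6 arrays compared. In line 409 it was 6, and 3 to 60 with 1 array left out, 3 with a mean signal of 100 or more required and 40 with array weights. Between the mutant lines it was 2, and 1 to 6 with 1 array left out, 1 with no filter, 1 without the intensity trend and 0 with a mean signal of 100 or more required. With the replicate number of the titles as a block, 37 probe sets were called in line 409, 0 of them members. Same-numbered arrays of the control and line 409 correlated in their deviations at 0.192, -0.038 and 0.103, and arrays of unlike number at -0.177 to 0.087. These few values do not settle whether the numbers pair the samples. No block was fitted for line 348, whose titles number its arrays 1, 1 and 3. The libraries that moved these counts most were control replicate 3, without which line 348 had 24 calls and line 409 had 60, and line 348 replicate 2, without which the mutant lines differed at 6.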
